A study of Mus musculus with 2 samples.

Results

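The genes described here are NRF2 (Nfe2l2), its sensor Keap1 and 33 further genes of antioxidant defence, which supply glutathione, thioredoxin and NADPH, remove superoxide and peroxide, or encode metallothioneins. They were chosen by gene symbol, and all 35 were found once each among the 55401 gene rows of the deposited table. A total of 34 passed the minimum of a mean of 1 FPKM over the libraries (a level scaled for gene length and depth), and Me1 did not. The measurement was poly(A)-selected RNA sequencing of myeloid-derived suppressor cells (MDSCs), immature neutrophil-like and monocyte-like cells that restrain T cells. They came by magnetic sorting from C57BL/6 mice, 8 weeks old, that bore MC38, a mouse colon carcinoma line, and were kept with MC38 cells for 24 h. The genotypes, with 1 library each, were LysM-cre, Mettl3fl/fl and Mettl3fl/fl without Cre, so both carried floxed alleles of Mettl3, whose product is the catalytic subunit of the N6-methyladenosine (m6A) methyltransferase for messenger RNA. LysM-cre is active in cells that transcribe the lysozyme 2 locus, so other cells in the preparation would be expected to keep Mettl3. Deletion of the floxed alleles is not shown by these data for any cell type. How many mice gave each library is not stated in the labels, and the tumour line is given as MC39 in 1 field of the Cre sample.

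NRF2 is a transcription factor that pairs with small MAF proteins on antioxidant response elements. KEAP1 holds it in the cytoplasm and hands it to a CUL3 ubiquitin ligase, and oxidants or electrophiles that modify KEAP1 let NRF2 reach the nucleus. Its targets raise glutathione and thioredoxin, the NADPH that recycles both, and enzymes that detoxify quinones. Phagocytes make superoxide with their own NADPH oxidase, so the same NADPH serves both oxidant production and defence.

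Response-element letters near the start sites of the members are shown because this is the sequence through which NRF2 is known to act. RefSeq promoters of build GRCm38.p6, each 250 bases before and 50 after a start site, were held for 32 of the 35 members. The letters TGACNNNGC were searched on both strands. They occurred in 11 of 42 member promoters (26.2%) and in 12.4% of all 32851 promoters. The matches that lay wholly before the start site are printed on the strand of the gene, with the match in capitals. It reads as written in Mt2 and Nfe2l2 and as its reverse complement in the other genes. In Mt2 and Prdx1 the match also holds the AP-1 letters TGANTCA, found in 7.81% of all promoters. The remaining matches, in Me1, Pgd and Srxn1, lay at or after the start site.
Gclm, chr3:122245408-122245446, plus strand: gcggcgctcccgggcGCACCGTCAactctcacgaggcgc
Txnrd1, chr10:82859099-82859137, plus strand: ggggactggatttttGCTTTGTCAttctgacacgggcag
Prdx1, chr4:116685451-116685489, plus strand: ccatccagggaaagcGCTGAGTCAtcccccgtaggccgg
Nfe2l2, chr2:75704880-75704913, minus strand: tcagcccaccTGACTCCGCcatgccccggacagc
G6pdx, chrX:74428914-74428952, minus strand: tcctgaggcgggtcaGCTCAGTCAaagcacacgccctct
Mgst1, chr6:138140456-138140494, plus strand: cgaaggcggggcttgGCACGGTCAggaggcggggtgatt
Sod1, chr16:90220691-90220729, plus strand: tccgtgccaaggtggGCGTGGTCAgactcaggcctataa
Mt2, chr8:94172524-94172562, plus strand: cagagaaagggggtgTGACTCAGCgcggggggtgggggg

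A shared feature of the proteins is shown for the members that carry selenocysteine, which is read from a TGA codon inside the reading frame and sits in the active site. These members are Gpx1, Gpx4, Msrb1 and Txnrd1. The coding stretches are from GENCODE M21 transcripts (GRCm38), with the selenocysteine codon in capitals. The codon is the 47th of 201 residues in Gpx1, the 129th of 253 in Gpx4, the 95th of 116 in Msrb1 and the 612th of 613 in Txnrd1, each in the longest annotated coding transcript.
Gpx1, codon at chr9:108339451-108339453: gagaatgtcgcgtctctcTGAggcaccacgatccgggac
Gpx4, codon at chr10:80054737-80054739: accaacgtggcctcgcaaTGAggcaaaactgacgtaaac
Msrb1, codon at chr17:24740158-24740160: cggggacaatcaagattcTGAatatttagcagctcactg
Txnrd1, codon at chr10:82896037-82896039: atcctccagtctggctgcTGAggttaa

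The libraries held 59393864 counts (labelled LysM-cre) and 59506878 counts (floxed control). With 1 library per genotype no difference has a replicate check and no test is given. Ratios of CPM (counts scaled to the library total) carry an exact 95% interval for counting error. It says how well a ratio between these libraries is known, not one between genotypes. Mettl3 itself stood at 3.92 FPKM in the LysM-cre-labelled library and 4.155 FPKM in the floxed control (CPM ratio 0.945, 95% interval 0.876 to 1.019), and how much of this came from the floxed exons is not shown by a gene-level value. Both libraries held the neutrophil and monocyte markers of MDSCs, with S100a9 at 5477 and 6078 FPKM and Ly6c2 at 121.5 and 137.3 FPKM in the LysM-cre-labelled library and the control. Both also held RNA of other cells, since B and plasma cell markers took 0.489% and 0.724% of counts in the same order. Of these markers, 1 was higher and 9 were lower in the LysM-cre-labelled library. The most abundant of them, Ighm, stood at 1360 FPKM there and 2848 FPKM in the control. Jchain went the other way, at 554.6 and 254.6 FPKM. In bulk RNA, fewer cells of a type and less RNA per cell cannot be told apart.

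The antioxidant genes differed little between the libraries as a group, and Osgin1 was the exception in size. Of the 34 members kept, 17 were higher and 17 lower in the LysM-cre-labelled library, with a median log2 ratio of FPKM + 1 of 0.005. Over all 12526 genes kept, 50.3% were higher, 49.7% were lower and the median was 0.001. At 1.5-fold or more, 1 member was higher (2.94%) and 0 were lower, where 3.19% of all genes were higher and 3.28% lower. These shares are near the background. Osgin1 was also the 1 member at 2-fold or more, where 1.31% of all genes were higher and 1.18% lower. At a ratio of 25% or more, 6 members were higher (17.6%) and 1 lower, where 8.41% of all genes were higher and 7.7% lower. The median absolute log2 ratio was 0.118 for the members and 0.114 for all genes kept. The counting interval lay above 1 for 14 members and below 1 for 13 (41.2% and 38.2%), against 30.1% and 29.7% of all genes. These shares compare genes of unlike level, and intervals are narrower for genes with more counts. A mean of 5 FPKM or more was reached by 27 of the 34 members and by 7238 of the 12526 genes. At this depth an interval can exclude 1 for a difference of a few percent.

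**Figure D1:**
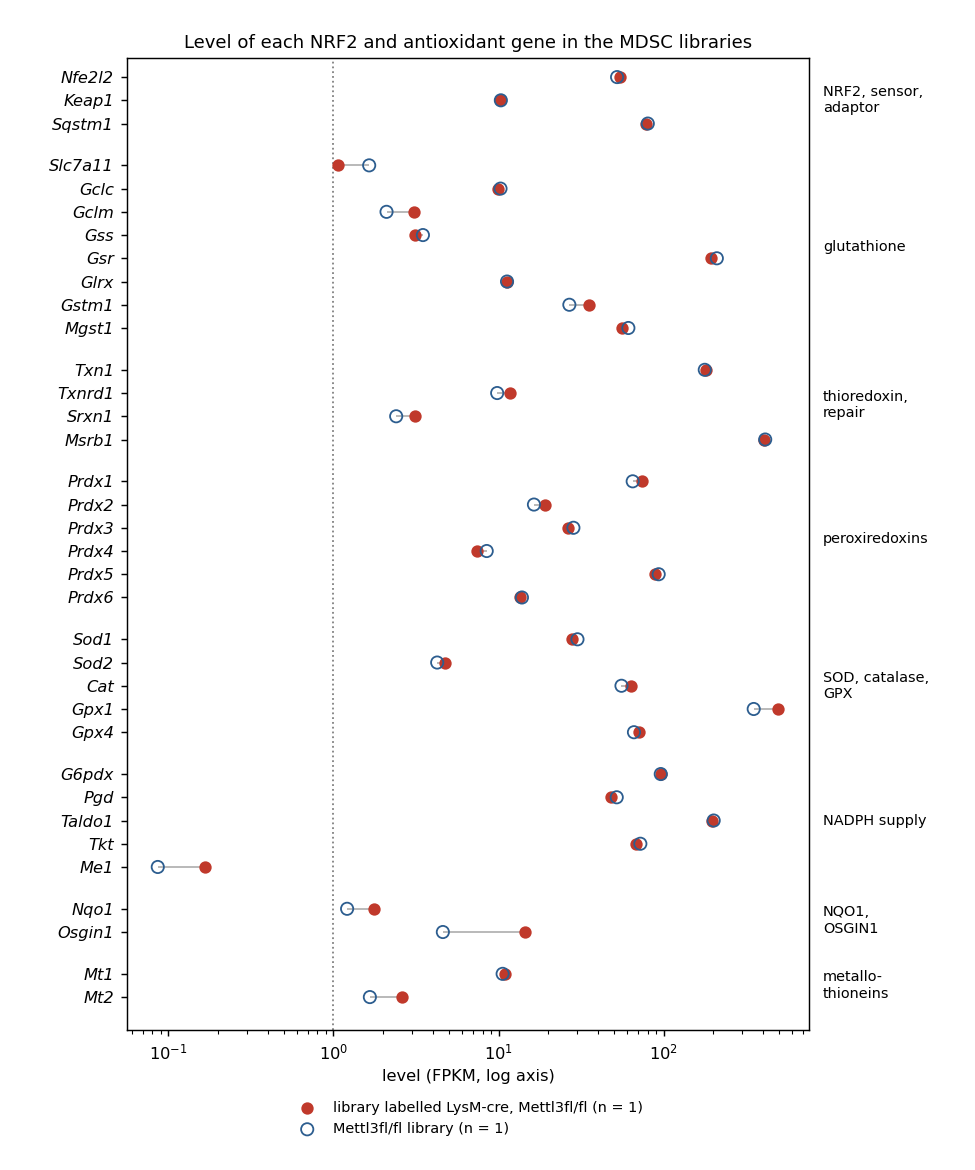
Level of each of the 35 genes on a log axis in FPKM, grouped by role, with a filled point for the LysM-cre-labelled library, an open point for the floxed control library (1 library each) and a dotted line at the minimum of 1 FPKM. The paired points lie close together for most genes, while Osgin1 stands at 14.4 and 4.60 FPKM and Me1 lies below the minimum in both libraries.

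NRF2, its sensor and the adaptor p62 were close in level between the libraries. Nfe2l2 (ENSMUSG00000015839, chr2:75675513-75704641, minus strand, mm10) stood at 54.1 FPKM in the LysM-cre-labelled library and 52.3 FPKM in the floxed control (CPM ratio 1.035, 95% interval 1.01 to 1.06). Keap1 stood at 10.2 and 10.3 FPKM (0.987, 0.940 to 1.037). The level of Nfe2l2 was thus 5.31 times that of Keap1 in the LysM-cre-labelled library and 5.06 times in the control. Sqstm1, which encodes the autophagy adaptor p62 that binds KEAP1 and is itself an NRF2 target, stood at 78.3 and 80.2 FPKM. NRF2 is known to be set mainly by the stability of its protein, which was not measured here.

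Osgin1 had the largest difference of all members. It encodes oxidative stress induced growth inhibitor 1, known in human cells as an NRF2 target. Osgin1 (ENSMUSG00000074063, chr8:119434124-119446256, plus strand) stood at 14.4 FPKM in the LysM-cre-labelled library and 4.60 FPKM in the floxed control, on 2567 and 825 counts. The CPM ratio was 3.12 (95% interval 2.88 to 3.38) and the log2 ratio of FPKM + 1 was 1.46, at the 99.4th percentile of all genes kept. No other gene row with counts overlapped it or shared its sequence, and it stayed past 2-fold under each alternative pseudocount, unit and scaling (log2 ratio 1.01 to 1.62). Its RefSeq promoter held no match to TGACNNNGC in the window searched. Nqo1, the quinone reductase long used as a marker of NRF2 activity, was near the minimum at 1.76 and 1.21 FPKM, on 183 and 126 counts (CPM ratio 1.455, 95% interval 1.15 to 1.84). Both genes of this pair were higher in the LysM-cre-labelled library, with counting intervals above 1, but of very different size. The log2 ratio of Osgin1 was close to that of Marco, a macrophage marker, which stood at 1.45. Marco had the largest ratio of its list, and the next, Cd5l, stood at 0.336. All 12 macrophage markers were higher in the LysM-cre-labelled library, with a median of 0.15, and the counting interval lay above 1 for 10 of them. The part of other cells in the level of Osgin1 was not tested.

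**Figure D2:**
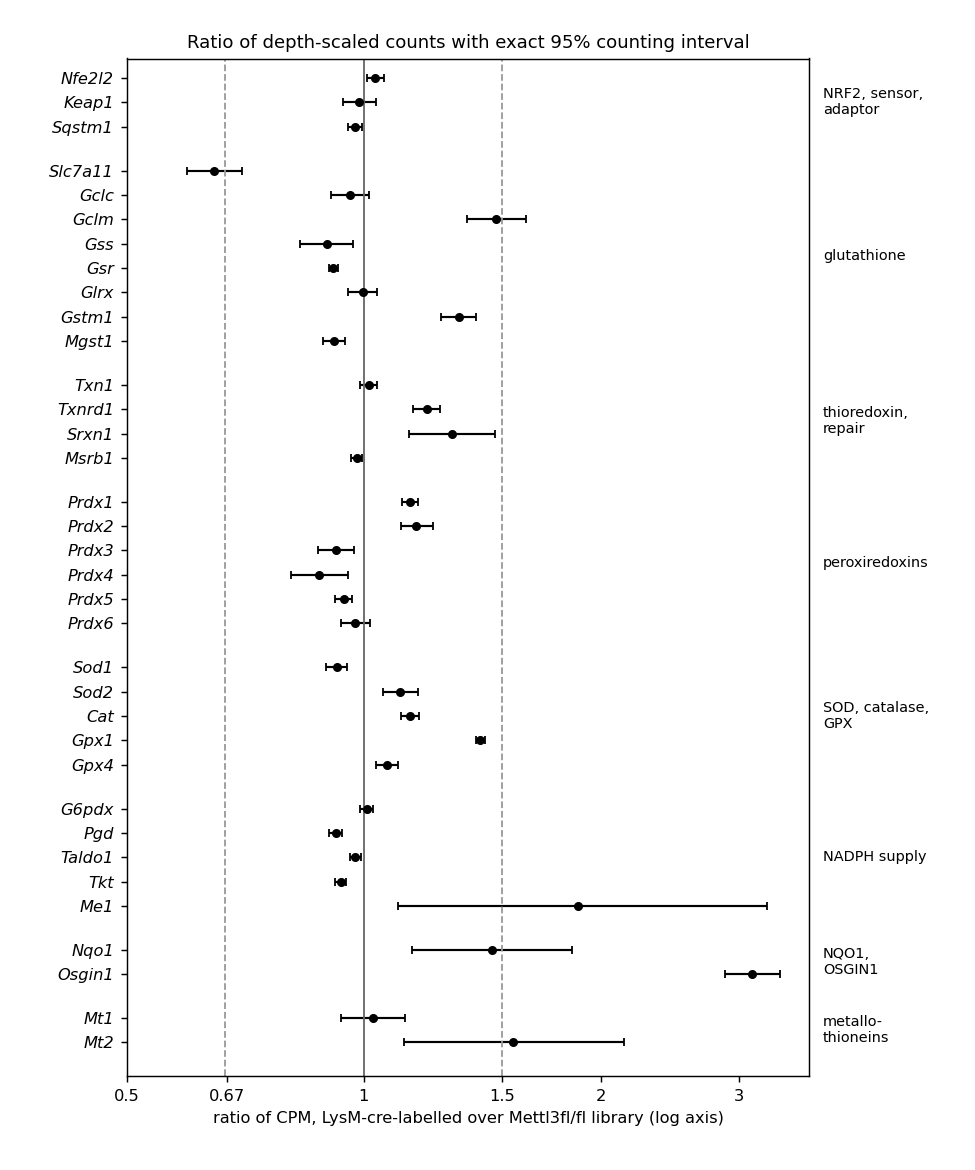
Ratio of CPM of each gene in the LysM-cre-labelled library over the floxed control library, on a log axis, with bars for the exact 95% counting interval and dashed lines at 1.5-fold. Osgin1 lies highest at 3.12, and the point of Slc7a11 lies past the lower line at 0.646. Mt2 (1.548) and Me1 (1.873) lie past the upper line, with wide bars from few counts. This ratio has no pseudocount, whereas the 1.5-fold counts in the text use FPKM + 1.

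Glutathione genes went in different directions within the same synthesis chain. Slc7a11, the cystine carrier that feeds the chain, stood at 1.06 FPKM in the LysM-cre-labelled library and 1.65 FPKM in the floxed control, on 988 and 1532 counts (CPM ratio 0.646, 95% interval 0.596 to 0.7004). It was the lowest ratio among the members. On the scale of FPKM + 1 the log2 ratio was −0.36, short of 1.5-fold, and Slc7a11 passed that rule narrowly with a pseudocount of 0.1 FPKM (−0.587) and with CPM in place of FPKM (−0.615). Gclm, the modifier subunit of the rate-limiting ligase, stood at 3.09 and 2.10 FPKM (1.47, 1.35 to 1.61), while Gclc, the catalytic subunit, stood at 9.89 and 10.3 FPKM (0.962, 0.910 to 1.016). The level of Gclc was therefore 3.20 times that of Gclm in the LysM-cre-labelled library and 4.90 times in the control. The Gclm row overlaps Gm17494 on the other strand, which held 3667 and 1372 counts (CPM ratio 2.68, 95% interval 2.52 to 2.85). The libraries were made strand-specific, but the strand setting of the counting is not given, so reads of this pair may be mixed and the Gclm value is uncertain. The same holds for Mettl3, which overlaps Tox4, and for Keap1, Sqstm1, Gss, Txnrd1, Prdx2, Prdx5, Sod1, G6pdx and Mt2, which also overlap rows with counts on the other strand. Gss, the next enzyme of the chain, stood at 3.13 and 3.48 FPKM (0.897, 0.830 to 0.970).

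Of the genes that use or recycle glutathione, the reductase gene Gsr was among the most abundant members. It stood at 192.4 FPKM in the LysM-cre-labelled library and 210.1 FPKM in the floxed control (CPM ratio 0.915, 95% interval 0.902 to 0.929). Gstm1, a cytosolic glutathione transferase, stood at 35.45 and 26.9 FPKM (1.32, 1.254 to 1.39). Gstm1 has close relatives, and the rows that share at least 10% of its 50-base stretches held few counts, with 63 and 0 for Gstm3 and 68 and 53 for Gstm2-ps1. Mgst1, a membrane-bound transferase, was lower at 56.1 and 61.2 FPKM, and the glutaredoxin gene Glrx was at 11.2 and 11.3 FPKM. Of these 8 glutathione genes, 2 were higher and 6 lower in the LysM-cre-labelled library, and none reached 1.5-fold on the log2 scale of FPKM + 1.

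In the thioredoxin system the carrier was level and its reductase was higher. Txn1, thioredoxin itself, stood at 180.3 FPKM in the LysM-cre-labelled library and 177.6 FPKM in the floxed control (CPM ratio 1.015, 95% interval 0.990 to 1.04). Txnrd1, the selenoenzyme that reduces it, stood at 11.8 and 9.81 FPKM (CPM ratio 1.202, with the lower bound at 1.156). Srxn1, which repairs overoxidised peroxiredoxins, stood at 3.105 and 2.40 FPKM on 584 and 452 counts (1.29, 1.14 to 1.47). Msrb1, which reduces oxidised methionine and is a selenoprotein too, was nearly level at 404.1 and 412.6 FPKM (0.979, 0.965 to 0.994). It was the second most abundant member by mean level.

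The peroxiredoxins together had nearly the same summed level, 228.8 FPKM in the LysM-cre-labelled library and 225.5 FPKM in the floxed control. Prdx1 and Prdx2, cytosolic enzymes of the typical kind, were the members of the family that were higher. Prdx1 had levels of 74.4 and 65.0 FPKM (CPM ratio 1.14, 95% interval 1.12 to 1.17). Prdx2 stood at 19.1 and 16.4 FPKM (1.17, 1.11 to 1.22). The other genes of the family were lower, with ratios from 0.879 for Prdx4 of the endoplasmic reticulum to 0.976 for Prdx6, whose interval of 0.936 to 1.018 included 1. Prdx5 was the largest part of the summed level (38.5% and 41.4%), and Prdx3, the mitochondrial enzyme, stood at 26.2 and 28.4 FPKM.

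Among the enzymes that meet superoxide and hydrogen peroxide, Gpx1 stood apart in absolute terms. It encodes the cytosolic glutathione peroxidase, was the most abundant member by mean level, and stood at 494.8 FPKM in the LysM-cre-labelled library and 351.5 FPKM in the floxed control, on 47527 and 33839 counts. In the control, Msrb1 at 412.6 FPKM was above it. The CPM ratio of Gpx1 was 1.41 (95% interval 1.39 to 1.43), below the 1.5-fold rule, and the log2 ratio of 0.492 lay at the 95.7th percentile of all genes kept. Gpx4, which reduces lipid peroxides and limits ferroptosis, stood at 70.8 and 66.1 FPKM (1.071, 1.04 to 1.105). A pseudogene row, Gpx4-ps2, shares 61.7% of its 50-base stretches and held 1239 and 1144 counts. Catalase (Cat) stood at 63.6 and 55.6 FPKM (1.145, 1.11 to 1.18). Sod2 of mitochondria was slightly higher at 4.73 and 4.25 FPKM, and the cytosolic Sod1 slightly lower at 27.8 and 30.1 FPKM. Of the 5 genes, 4 were higher and 1 lower, and each counting interval excluded 1.

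Gpx1, Cat and Prdx2 are also abundant in red blood cells and their precursors, and erythroid and macrophage markers differed in the same direction. All 8 erythroid markers kept were higher in the LysM-cre-labelled library (median log2 ratio 0.40), with a summed level of 1389.1 FPKM for the 9 found, against 992.6 FPKM in the floxed control. Hbb-bs stood at 464.8 and 333.5 FPKM. All 12 macrophage markers were higher (median 0.15), with sums of 2824.0 and 2535.8 FPKM, and all 8 eosinophil markers were higher (median 0.49), with sums of 895.3 and 672.1 FPKM. The counting interval lay above 1 for 10 of these macrophage markers and 7 of the eosinophil ones. Most of the eosinophil sums was Ear2, at 728.4 and 571.6 FPKM. Neutrophil markers were lower for 10 of 12 (median −0.26), with sums of 11362.1 and 12948.2 FPKM, and monocyte markers were mixed (6 higher and 4 lower, sums of 2052.8 and 1999.7 FPKM). Among them Cx3cr1, the fractalkine receptor gene, stood apart at 61.6 FPKM in the LysM-cre-labelled library and 6.16 FPKM in the floxed control, with a CPM ratio of 9.99 (95% interval 9.525 to 10.5), and its difference is larger than that of the sums. The Cx3cr1 row overlaps other rows with counts, among them Csrnp1 on the same strand (7536 and 5421) and Wdr48 on the other (4594 and 4275). How reads of overlapping rows were assigned is not given, so the Cx3cr1 value is uncertain. T and NK cell markers summed to 331.7 and 319.5 FPKM (3 of 8 higher). Epithelial markers summed to 4.2 and 4.0 FPKM (1 of 2 higher), with Krt19 and Krt20 at 0 in both libraries. Whether MC38 cells express these epithelial genes was not examined, so the low sums do not show how much tumour RNA was present. No marker of the other lists was at 0 in both. The part of these cells in the levels of Gpx1, Cat and Prdx2 was not tested.

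The NADPH supply genes were level or slightly lower. G6pdx, the entry enzyme of the pentose phosphate pathway, stood at 97.0 FPKM in the LysM-cre-labelled library and 96.1 FPKM in the floxed control (CPM ratio 1.009, 95% interval 0.989 to 1.029). Pgd, the next NADPH-forming enzyme, stood at 47.9 and 52.0 FPKM (0.921, 0.904 to 0.939). The transaldolase gene Taldo1 (196.4 and 201.1 FPKM) and the transketolase gene Tkt (67.6 and 72.3 FPKM) of the non-oxidative branch were lower by a few percent. Me1, a cytosolic malic enzyme, held 43 and 23 counts and lay below the minimum at 0.167 and 0.0862 FPKM. The summed level of the 5 genes was 409.1 and 421.6 FPKM.

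The metallothionein genes Mt1 and Mt2 lie 5514 bases apart on chromosome 8 and encode small metal-binding proteins. Mt1 stood at 10.9 FPKM in the LysM-cre-labelled library and 10.6 FPKM in the floxed control (CPM ratio 1.029, 95% interval 0.937 to 1.13). Mt2 stood at 2.59 and 1.66 FPKM on only 102 and 66 counts (1.55, 1.12 to 2.14). With a pseudocount of 0.1 FPKM it passed the 1.5-fold rule (0.61). Its interval runs from a small difference to one past 2-fold.

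**Figure D3:**
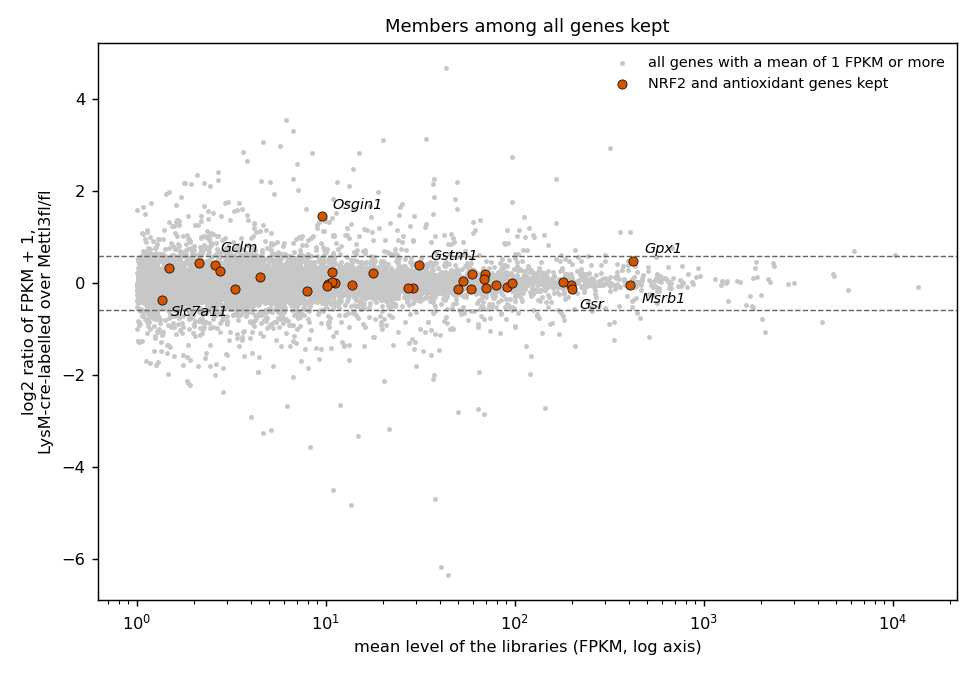
Log2 ratio of FPKM + 1, the LysM-cre-labelled library over the floxed control library, against the mean level in FPKM on a log axis, with all 12526 genes kept in grey, the 34 members kept in orange and dashed lines at 1.5-fold. Osgin1 lies above the upper dashed line and the other members lie between the lines, Gpx1 nearest to the upper one at 0.492.

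By level, the 5 members at 100 FPKM or more in both libraries were Gpx1, Msrb1, Gsr, Taldo1 and Txn1. The 7 members with a mean below 5 FPKM were Gclm, Gss, Mt2, Nqo1, Slc7a11, Sod2 and Srxn1, of which 5 were higher and 2 lower in the LysM-cre-labelled library (median log2 ratio 0.27). Of the 27 members at 5 FPKM or more, 12 were higher and 15 lower (median −0.016). Among all genes kept the share that was higher was 50.1% below 5 FPKM and 50.3% at or above it. No test of this grouping was made, since it was seen in the same values.

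Members with and without the response-element letters can be set beside each other. Of the 10 kept members with a match, 7 were higher and 3 lower (median log2 ratio 0.12). Of the 21 without one, 10 were higher and 11 lower (median −0.004). The 3 members for which no promoter was at hand are Gclc, Gsr and Prdx6. These are counts of letters in a short window and do not show where NRF2 binds. The selenoproteins were higher for 3 of 4 (Gpx1, Txnrd1 and Gpx4) and Msrb1 was lower by a few percent.

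Because Mettl3 is the targeted gene, the letters GGACT, the best known context of m6A in mammalian messenger RNA, were counted within 100 bases on either side of the stop codon, on the transcript strand. They occurred in 3 of 33 member transcripts (9.09%) and in 23.1% of 19647 protein-coding transcripts. The matches lay after the stop codon in Slc7a11, Gss and G6pdx, whose CPM ratios were 0.646, 0.897 and 1.009. Osgin1 and Gpx1 had none in this window. The matched sites are printed in DNA letters on the strand of the gene, with GGACT in capitals, and methylation was not measured in these files.
Slc7a11, chr3:50372202-50372226, minus strand: cgttgatgatGGACTaaaggaatca
Gss, chr2:155563570-155563594, minus strand: gacgccatctGGACTtcactcagga
G6pdx, chrX:74410108-74410132, minus strand: ccctatattaGGACTattgacccca

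The other genes of the pathway differed little as a group too. Of 94 further genes kept from the pathway lists, 48 were higher and 46 lower in the LysM-cre-labelled library (median log2 ratio 0.009), with 2 at 1.5-fold or more higher and 3 lower, where 3.19% of all genes were higher and 3.28% lower. These counts are near the background. All but 2 of these 5 were partners or regulators of NRF2, the exceptions being Msra and Mgst3. Gsk3b, a kinase that marks NRF2 for degradation apart from KEAP1, stood at 3.56 FPKM in the LysM-cre-labelled library and 8.72 FPKM in the floxed control (CPM ratio 0.4085, 95% interval 0.389 to 0.429). Nfe2, a relative of NRF2 that uses the same MAF partners and is known from megakaryocyte and erythroid cells, stood at 15.6 and 8.48 FPKM (1.84, 1.73 to 1.95). Trim21, a ubiquitin ligase that binds p62 and is interferon-inducible, stood at 5.34 and 9.14 FPKM (0.584, 0.545 to 0.625). Maff, a small MAF partner, stood at 0.965 and 1.83 FPKM on 169 and 319 counts (0.531, 0.438 to 0.642). As given above, erythroid markers were higher in the LysM-cre-labelled library, and their part in the level of Nfe2 was not tested.

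Other known NRF2 targets were higher more often than lower, at 15 of 20 kept (median log2 ratio 0.135), and none reached 1.5-fold. Over all genes kept, 50.3% were higher (median 0.001) and 3.19% were 1.5-fold or more higher. This list was chosen with earlier results of these data known, so its count is described and not tested. Hmox1, the haem oxygenase, stood at 1039 FPKM in the LysM-cre-labelled library and 831 FPKM in the floxed control (CPM ratio 1.249, 95% interval 1.239 to 1.26). The biliverdin reductases Blvra (22.9 and 16.1 FPKM) and Blvrb (29.6 and 22.75 FPKM) act on the product of haem oxygenase. The carbonyl reductase gene Cbr1 stood at 3.56 and 2.42 FPKM and the glutathione transferase gene Gsta4 at 3.61 and 2.35 FPKM. Haem-handling genes of this list are also abundant in macrophages, whose markers were higher as given above, and their part was not tested.

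Among other glutathione genes, 10 of 18 were higher. Mgst3, a membrane-bound transferase, stood at 4.655 FPKM in the LysM-cre-labelled library and 2.75 FPKM in the floxed control (CPM ratio 1.69, 95% interval 1.42 to 2.02), Gstk1 at 6.565 and 4.95 FPKM, Gstz1 at 1.77 and 2.50 FPKM, and Chac2, which degrades glutathione, at 1.40 and 2.045 FPKM. Among other thioredoxin and methionine sulfoxide genes, 5 of 12 were higher, and Msra was the one past 1.5-fold. Msra, which reduces the other stereoisomer of oxidised methionine than Msrb1, stood at 4.395 and 9.07 FPKM on 1259 and 2604 counts (0.484, 0.4525 to 0.518). The level of Msrb1 was 92 times that of Msra in the LysM-cre-labelled library and 45.5 times in the control. Of the other NADPH and superoxide genes, 5 of 10 were higher, the largest difference being H6pd at 12.8 and 11.1 FPKM. Selenoprotein synthesis genes were higher for 5 of 8, with Eefsec, the elongation factor for selenocysteine, at 6.48 and 4.74 FPKM (1.365, 1.251 to 1.49).

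The oxidant source of phagocytes differed little. Of 7 genes of the phagocyte oxidase, 1 was higher and 6 lower (median log2 ratio −0.02), with Cybb, its catalytic subunit, at 195.6 FPKM in the LysM-cre-labelled library and 216.2 FPKM in the floxed control (CPM ratio 0.904, 95% interval 0.895 to 0.913). Rac1, the exception, stood at 83.85 and 79.6 FPKM.

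**Figure D4:**
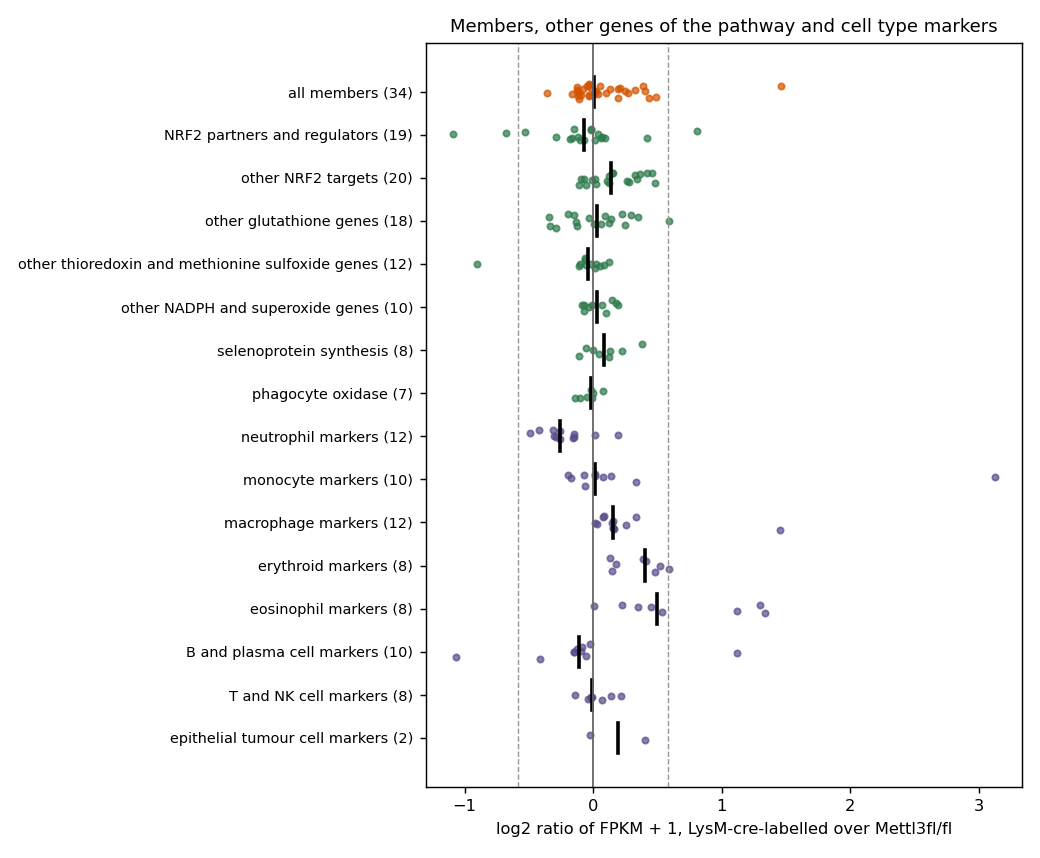
Log2 ratio of FPKM + 1, the LysM-cre-labelled library over the floxed control library, for each kept gene (points) and the median (black bar) of the members, of other pathway lists (green) and of cell type marker lists (purple), with the number of genes kept in brackets and dashed lines at 1.5-fold. The median of the members lies at 0.005, that of other NRF2 targets at 0.135, that of erythroid markers at 0.40 and that of neutrophil markers at −0.26.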

How the data were processed

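Deposited counts per gene row are whole numbers, not normalized, and the authors' FPKM values are scaled for depth and gene length, per the file headers. Build mm10 and the tools HISAT2 2.0.4, StringTie 1.3.4d, cutadapt 1.9, DESeq2 and edgeR are named in the submitters' processing notes. What each did, the strand setting and the treatment of multi-mapping reads were not given in the sources used here. An FPKM of 0.0001 stood where a count was 0 and was read as 0. Another 8 value columns, of 4 libraries without labels, were left out. FPKM and CPM ratios differed by at most 0.053 (log2) over 14019 rows with high counts. Coordinates are the table's (31 of 35 members are the same in GENCODE M21).

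The log2 ratio is that of FPKM + 1, which understates differences of low genes, and genes below a mean of 1 FPKM were dropped. Intervals are exact 95% (Clopper-Pearson) intervals. They cover counting error only and treat each count as independent. Copies made by PCR are no independent molecules and would make the intervals too narrow. The members and the lists were chosen with earlier results of these data known. Named are all members, Mettl3, and of each pathway list up to 4 genes with the largest absolute ratio. Of marker lists, up to 2 genes with the highest mean level could be named (S100a9, Hbb-bs, Ighm, Jchain, Ear2). Hmox1, Ly6c2, Cx3cr1, Marco and Cd5l fall outside this rule and were named after their values were seen. A repeat with overlapping rows, near copies (rows sharing at least 10% of the 50-base stretches of a gene), other pseudocounts, units, scalings (edgeR 4.0.16 TMM, DESeq2 1.42.0), minimums and folds is given at the end. The code was checked on simulated counts with planted differences and an assumed spread, and the intervals on counts with counting error only. Such a check does not show how much libraries of the same genotype differ. Python 3.11.15, pandas 2.3.3, scipy 1.17.1 and R 4.3.3 were used.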

Additional observations from a re-analysis of the deposited data

How the results depend on the processing

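Of the members, 34 kept the direction of their log2 ratio under all 8 alternatives of pseudocount, unit, scaling and summed rows, and G6pdx, which was level, went to −0.005 in TPM. The count of members at 1.5-fold or more was 2 higher and 1 lower with a pseudocount of 0.1 FPKM, where Mt2 (0.61) and Slc7a11 (−0.587) passed, and 1 lower with CPM in place of FPKM (Slc7a11, −0.615), against 1 and 0 as reported. At a ratio of 25% or more, 6 were higher (Osgin1, Gpx1, Mt2, Gclm, Gstm1 and Nqo1) and 1 lower (Slc7a11), where 8.41% and 7.7% of all genes passed. At 2-fold the counts were again 1 and 0. The median log2 ratio of the members lay between −0.016 (minimum of 5 FPKM) and 0.013 (no minimum). No paired analysis was possible because each genotype had 1 library, and for the same reason no library could be left out. Depth limits Mt2, Nqo1 and Me1, which rest on few counts.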
